A study of Mus musculus with 12 samples.

Results

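The small leucine-rich proteoglycans are secreted matrix proteins, and 7 of their genes are described here: Bgn (biglycan), Dcn (decorin), Prelp, Fmod (fibromodulin), Ogn (osteoglycin), Lum (lumican) and Aspn (asporin). They were chosen by gene symbol, and each of the 7 had 1 row among the 29462 genes of the deposited table. RNA was sequenced from primary aortic smooth muscle cells in 12 libraries, 6 from mice that lack the enzyme cystathionine gamma-lyase (CSE, encoded by Cth) in the whole body (KO), and 6 from C57BL/6J mice (WT). Both genotypes received angiotensin II, a vasoconstrictor peptide, at 1 uM for 24 h after culture with fetal bovine serum, and no untreated cells were analysed here. The labels give neither the age nor the number of mice, nor say if replicates of 1 genotype are separate cultures, so the p-values reflect the spread among these 12 libraries, which may be technical.

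Each of these proteins has a small core built of leucine-rich repeats. Biglycan and decorin carry chondroitin or dermatan sulfate chains, whereas lumican and fibromodulin carry keratan sulfate. The cores bind collagen and set how fibrils assemble and how thick they grow, and several of them also bind TGF-beta or cell surface receptors. In the aorta, biglycan and decorin are made by smooth muscle cells and adventitial fibroblasts, and male mice of a BALB/c strain that lack biglycan die of aortic rupture.

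Values are FPKM as the authors deposited them. Fragments are divided by gene length and by library size, which allows levels of different genes to be set side by side. The FPKM of a library summed to 255538 to 281432, and the read depth is unknown. Cth itself was at most 0.02 FPKM in KO libraries and 0.08 FPKM in WT libraries, so it does not check the genotype labels. KO replicates 5 and 6 stood apart from the other 4 KO libraries: across genes their log2 values correlated with them at 0.947 to 0.96, where KO replicates 1 to 4 correlated with each other at 0.993 to 0.995. Results that rest on these 2 libraries are given with and without them. Of the defining smooth muscle markers, Myh11 stayed at or under 0.03 FPKM in all 12 libraries and Cnn1 at or under 0.24. Tagln averaged 0.695 FPKM in KO and 0.153 in WT, and Acta2 101.8 FPKM in KO and 120.1 in WT. The name smooth muscle cell is that of the labels.

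Of the 7 genes, Prelp and Fmod were lower in every KO library, and Bgn was higher on average in KO cells. Fmod averaged 0.108 ± 0.0417 FPKM in KO and 15.1 ± 2.1 in WT (SD, n = 6 each), and Prelp 14.2 ± 6.79 FPKM in KO and 94.5 ± 7.47 in WT. Bgn averaged 483.2 ± 85 FPKM in KO and 363.2 ± 19.5 in WT, and in KO replicates 5 and 6 it lay inside the WT range. With all 12 libraries Dcn and Ogn missed the threshold, and both were above WT in KO replicates 1 to 4 and below WT in KO replicates 5 and 6. Lum and Aspn were close to 0 in both genotypes. 5 of the 7 passed the filter of at least 1 FPKM in at least 6 libraries and were tested, and Fmod passed it through its 6 WT libraries alone. Of these 5, 3 passed an adjusted p of 0.05 (limma on log2(FPKM + 1), two-sided, Benjamini-Hochberg over all 11831 genes tested). Over all genes tested, 63.5% passed, so a count of this size does not set these genes apart. Without KO replicates 5 and 6 all 5 passed, 3 higher and 2 lower, where 77.1% of all genes tested passed, 39.9% higher and 37.1% lower. The genotypes did not overlap for 2 of the 5 genes, and for 46.4% of all genes tested. Polyadenylated RNA of whole cultures was measured, in which fewer cells of a type and less RNA per cell cannot be told apart.

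**Figure D1:**
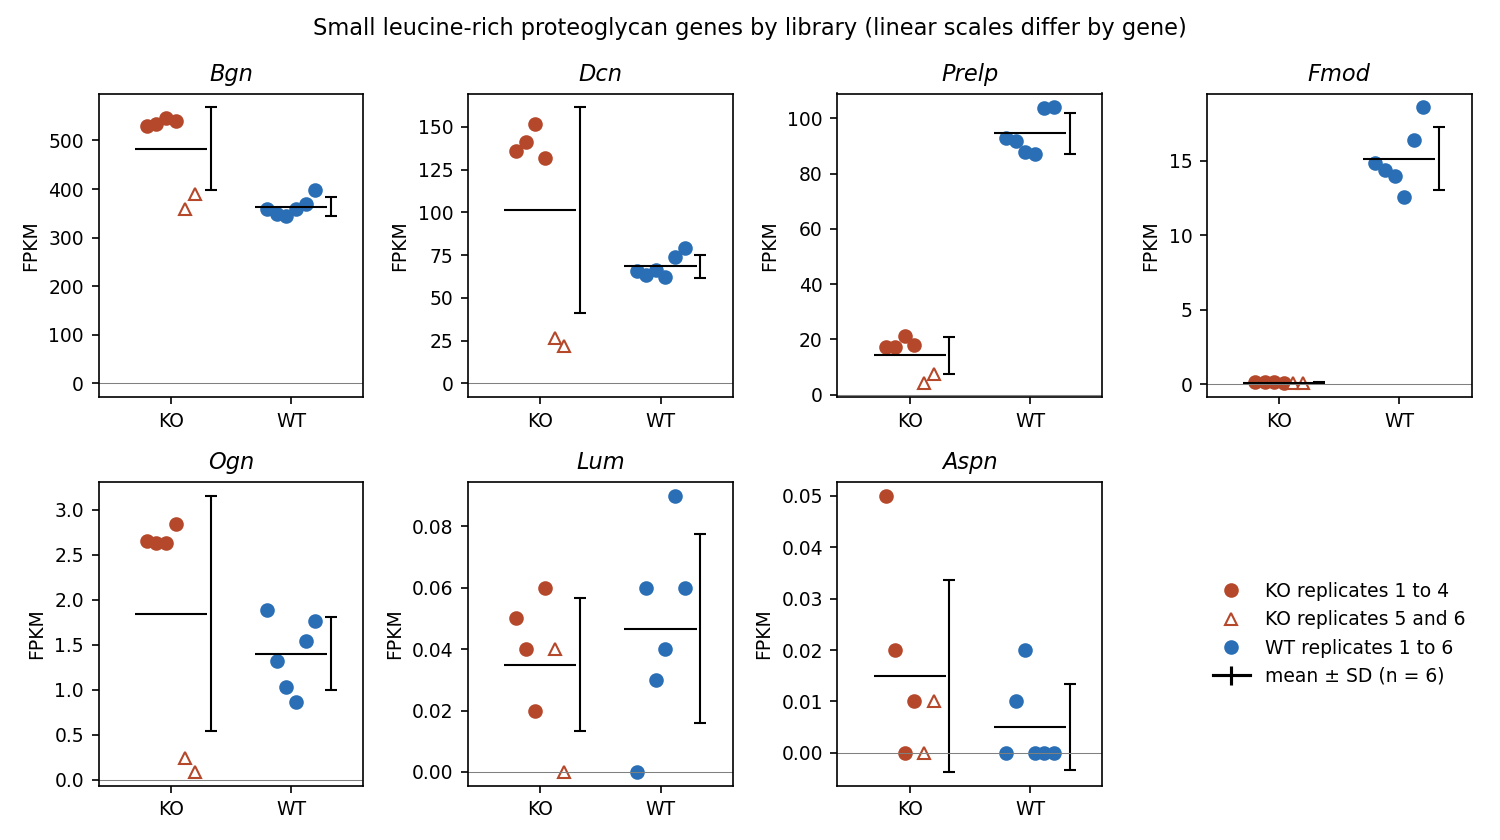
FPKM of the 7 genes in each library on linear axes, KO left and WT right; filled circles are KO replicates 1 to 4 and all WT libraries, open triangles KO replicates 5 and 6, lines and bars the mean ± SD of 6 libraries. Prelp and Fmod were lower in every KO library, and Bgn, Dcn and Ogn were above every WT library only in KO replicates 1 to 4.

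The promoters of Fmod and Prelp, which share the fall, and of Bgn, which moved the other way, are shown for reference beside the values. Each run is the 250 bases before the transcription start in RefSeq on GRCm38.p6, 5′ to 3′ on the strand of the gene. Capitals mark 2 motifs wherever either strand holds them, the GC box (GGGCGG) and a short SMAD-binding box (CAGAC). Both strands were also searched for the TATA box (TATAAA) and the AP-1 site (TGANTCA), which were not in these 3 windows.
Fmod, chr1:134037004-134037253, plus strand: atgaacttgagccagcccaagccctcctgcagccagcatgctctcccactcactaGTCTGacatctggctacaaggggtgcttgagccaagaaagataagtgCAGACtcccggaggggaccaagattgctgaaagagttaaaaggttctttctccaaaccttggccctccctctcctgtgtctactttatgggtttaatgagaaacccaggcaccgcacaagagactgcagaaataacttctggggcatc
Prelp, chr1:133921402-133921651, minus strand: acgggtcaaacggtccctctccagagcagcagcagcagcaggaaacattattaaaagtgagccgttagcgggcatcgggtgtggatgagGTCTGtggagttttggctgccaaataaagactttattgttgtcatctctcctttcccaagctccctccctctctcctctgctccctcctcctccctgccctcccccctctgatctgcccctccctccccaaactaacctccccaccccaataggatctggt
Bgn, chrX:73483351-73483600, plus strand: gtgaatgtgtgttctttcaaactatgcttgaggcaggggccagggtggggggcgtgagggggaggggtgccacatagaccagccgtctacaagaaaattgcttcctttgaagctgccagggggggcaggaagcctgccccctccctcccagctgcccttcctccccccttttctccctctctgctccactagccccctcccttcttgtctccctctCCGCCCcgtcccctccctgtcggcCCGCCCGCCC
Fmod held 2 SMAD boxes and Prelp 1, a motif found in 42.2% of all 32851 promoter windows of this length. Bgn held 3 GC boxes within its last 34 bases, 2 of them overlapping, and 32.7% of all windows held at least 1. AP-1 sites were in 6.75% and TATA boxes in 12.4% of all windows. GC content was 51.2% for Fmod, 55.6% for Prelp and 64.4% for Bgn, against a median of 52.4% over all windows. Of the other genes, Ogn and Aspn had windows with 2 TATAAA matches each, all between positions -229 and -173 from the start.

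Fibromodulin is a keratan sulfate proteoglycan with sulfated tyrosines that binds collagen at the same site as lumican and is abundant in tendon. Its gene, ENSMUSG00000041559, lies at chr1:134037254-134048277 on the plus strand (GRCm38, GENCODE M21). Fmod ranged from 0.06 to 0.16 FPKM in KO libraries (median 0.105) and from 12.55 to 18.57 in WT libraries (median 14.6). The genotypes did not overlap, and the mean in WT was 139.6 times that in KO. The difference was -3.85 ± 0.079 (SE) on the log2(FPKM + 1) scale (limma adjusted p = 2.2e-13), a scale that understates changes of genes near 0. Without KO replicates 5 and 6 it was -3.83 ± 0.084 (limma adjusted p = 9e-13), so these libraries hardly moved it. The authors' deposited table gives Fmod a ratio of 141.64 for WT over KO and marks it as significant.

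Prelp encodes the proline- and arginine-rich end leucine-rich repeat protein, which binds heparan sulfate through a basic end and anchors basement membranes to collagen. It is gene ENSMUSG00000041577 at chr1:133910304-133921414 on the minus strand. Prelp was at 17.08, 17.4, 21.25 and 17.92 FPKM in KO replicates 1 to 4, while KO replicates 5 and 6 held 4.08 and 7.41. WT libraries held 87.18 to 103.95 FPKM, with a median of 92.3. Each KO library was below each WT library, and KO replicates 5 and 6 were the lowest of all. The mean in WT was 6.66 times that in KO, and the difference was -2.82 ± 0.308 (SE) on the log2 scale (limma adjusted p = 3.3e-06). Without KO replicates 5 and 6 it was -2.3 ± 0.0679 (limma adjusted p = 1.4e-11). Of all genes tested, 22.5% had every KO library below every WT library, as Fmod and Prelp did.

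Biglycan, the most abundant of the 7 in both genotypes, carries chondroitin or dermatan sulfate, binds collagen and TGF-beta, and when released from matrix is a ligand of the innate receptors TLR2 and TLR4. Its gene, ENSMUSG00000031375, lies at chrX:73483602-73495933 on the plus strand. Bgn was at 529.97, 534.04, 545.33 and 540.98 FPKM in KO replicates 1 to 4, while KO replicates 5 and 6 held 358.97 and 389.71. WT libraries held 344.14 to 398.72 FPKM, with a median of 358.9. The first 4 KO libraries were thus above all WT libraries, and the other 2 fell inside the WT range. The difference was 0.39 ± 0.107 (SE) on the log2 scale, a ratio of mean FPKM of 1.33 (limma adjusted p = 0.0059). It was 0.57 ± 0.0373 without KO replicates 5 and 6 (limma adjusted p = 2.8e-08). Among the genes tested Bgn ranked 54 by mean FPKM in KO and 87 in WT. Bgn is X-linked, and Xist, the RNA of the inactive X chromosome, ranged from 2.31 to 3.53 FPKM in KO replicates 1 to 4, with 0.31 and 0.63 in KO replicates 5 and 6, and 0.01 to 0.04 in WT libraries. The part of X dosage in the Bgn values was not tested.

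Decorin, the closest relative of biglycan in the set, binds fibrillar collagen, sequesters TGF-beta and acts on the growth factor receptors EGFR and MET. Its gene, ENSMUSG00000019929, lies at chr10:97479609-97518143 on the plus strand. Dcn was at 135.59, 140.98, 151.34 and 131.51 FPKM in KO replicates 1 to 4, while KO replicates 5 and 6 held 26.69 and 22.08. WT libraries held 62.25 to 79.26 FPKM, with a median of 65.8. The WT range thus lay between the 2 sets of KO libraries, with no overlap on either side. With all libraries the difference was 0.2 on the log2 scale with a 95% interval from -0.8 to 1.2 (limma adjusted p = 0.73), an interval that holds changes of up to about 1 in either direction. Without KO replicates 5 and 6 it was 1.02 ± 0.0668 (SE), and Dcn passed (limma adjusted p = 2.6e-08). With a weight per library the difference was 1.01 (limma adjusted p = 3.4e-06). This was close to the value without KO replicates 5 and 6, so it is not a separate check. The pattern of Dcn, 4 KO libraries above and 2 below every WT library, was met by 2.19% of all genes tested, a description chosen after the values were seen.

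Osteoglycin, also called mimecan, is a smaller member of the family known from bone, cornea and the vessel wall. Its gene, ENSMUSG00000021390, lies at chr13:49608046-49624501 on the plus strand. Ogn was at 2.65, 2.63, 2.63 and 2.84 FPKM in KO replicates 1 to 4, while KO replicates 5 and 6 held 0.24 and 0.09. WT libraries held 0.86 to 1.89 FPKM, with a median of 1.43. The 2 sets of KO libraries again lay on either side of the WT range, at a far lower level than for Dcn. The difference was 0.08 with a 95% interval from -0.62 to 0.78 on the log2 scale (limma adjusted p = 0.84), and 0.64 ± 0.112 (SE) without KO replicates 5 and 6 (limma adjusted p = 0.00021). Its sign with all libraries turned with a pseudocount of 0.1 (-0.21) or 0.01 (-0.37), with TPM rescaling (-0.06) and without any one of KO replicates 1 to 4 (-0.04 to -0.02), so no direction is given for it there. With a weight per library Ogn passed (0.62, limma adjusted p = 0.00038). That value was close to the one without KO replicates 5 and 6, so it is not a separate check.

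**Figure D2:**
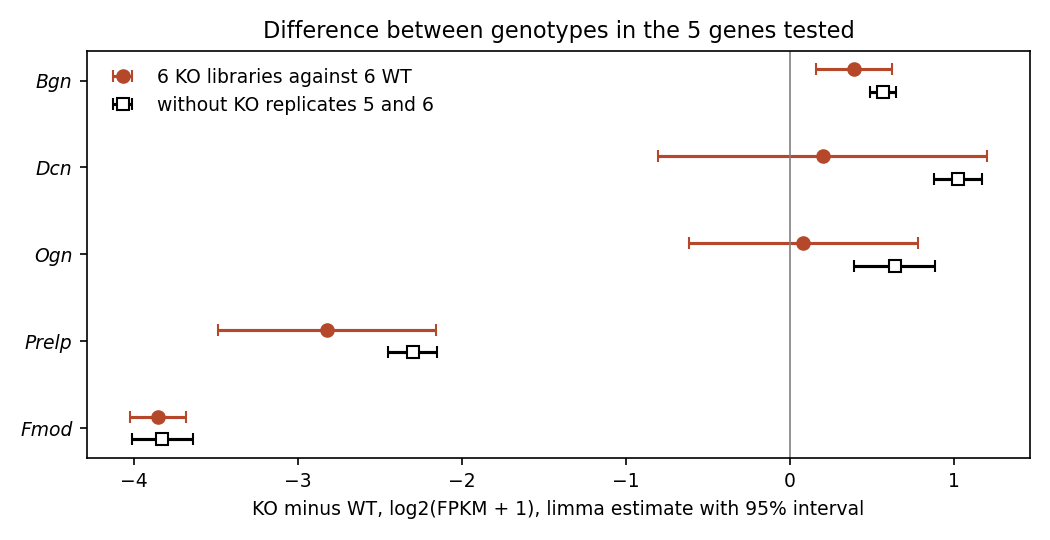
Difference KO minus WT in log2(FPKM + 1) for the 5 genes tested, with 95% intervals from limma; circles use all 12 libraries and squares leave out KO replicates 5 and 6. The intervals of Dcn and Ogn hold 0 with all libraries, at 0.2 and 0.08, and lie above 0 without the 2 libraries, at 1.02 and 0.64.

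Lumican, the keratan sulfate proteoglycan that keeps the cornea clear, and asporin, which has an aspartate-rich end and inhibits TGF-beta, were hardly detected. Lum was at most 0.06 FPKM in KO libraries and 0.09 in WT libraries, and was listed at 0 in 1 library of each genotype. Aspn was at most 0.05 FPKM in KO libraries and 0.02 in WT libraries, and was listed at 0 in 2 KO and 4 WT libraries. Neither reached the filter. Exact permutation of the genotype labels, with 924 possible assignments, gave no call for either (two-sided p = 0.522 for Lum and 0.359 for Aspn, smallest possible p 0.00216). Differences at this level were not detectable.

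The order of levels differed between the genotypes for Dcn and Prelp, and for Ogn and Fmod. In KO cells the order of means was Bgn, Dcn, Prelp, Ogn, Fmod, Lum, Aspn, whereas in WT cells it was Bgn, Prelp, Dcn, Fmod, Ogn, Lum, Aspn. Dcn was above Prelp in 6 of 6 KO libraries, and Prelp was above Dcn in 6 of 6 WT libraries. In KO the ranges of Ogn and Fmod, of Fmod and Lum, and of Lum and Aspn overlapped, and in WT that of Lum and Aspn. In every KO library Ogn was nonetheless above Fmod, and in every WT library Fmod was above Ogn.

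Biglycan made up more of the summed FPKM of the 7 genes in KO libraries. Its share was 75.67% to 78.02% in KO replicates 1 to 4, 92.02% and 92.93% in KO replicates 5 and 6, and 65.36% to 68.82% in WT libraries. The share of Prelp was 1.05% to 2.95% in KO libraries and 16.69% to 18.33% in WT libraries. Bgn exceeded Dcn 3.6- to 4.11-fold in KO replicates 1 to 4, 13.45- and 17.65-fold in KO replicates 5 and 6, and 4.98- to 5.78-fold in WT libraries. The ratio therefore left the WT range downwards in 4 KO libraries and upwards in the other 2. The sum itself was 685.5 to 720.7 FPKM in KO replicates 1 to 4, 390.1 and 419.4 in KO replicates 5 and 6, and 513.2 to 602.3 in WT libraries.

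**Figure D3:**
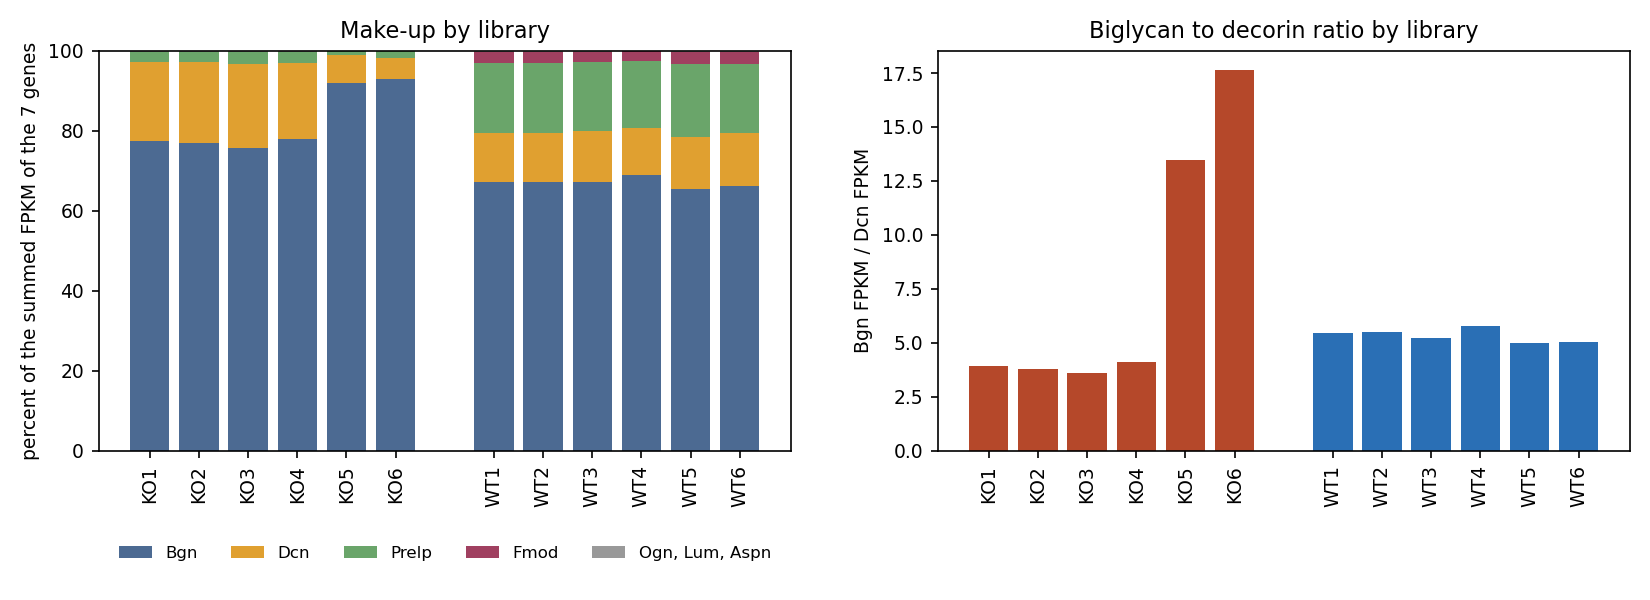
Left, share of each gene in the summed FPKM of the 7 genes, in percent, by library; right, FPKM of Bgn divided by FPKM of Dcn by library; KO libraries stand left of WT libraries in both. Prelp takes 16.69% to 18.33% in WT libraries and at most 2.95% in KO libraries, and the ratio of Bgn to Dcn reaches 17.65 in KO replicate 6.

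6 of the 7 genes lie in 3 clusters of related genes. The clusters on chromosomes 10 and 13 each hold a member near 0, Lum or Aspn, so a joint fall could not be seen in them. In the cluster on chromosome 1 both members were lower in KO. There Prelp and Fmod are transcribed away from each other from starts 115.8 kb apart. Their relative Optc (opticin), beside Prelp, stayed near 0, at 0.0633 FPKM in KO and 0.0333 in WT. The next gene beyond Optc, Atp2b4, a plasma membrane calcium pump, was also lower, at 0.193 ± 0.0638 FPKM in KO and 2.49 ± 0.203 in WT (limma adjusted p = 5.9e-11). On the other side Btg2, an antiproliferative p53 target, was higher, at 23.1 ± 0.756 FPKM in KO and 11.1 ± 0.506 in WT (limma adjusted p = 6.4e-10). Atp2b4, like Fmod, passed the filter through its WT libraries alone. Of these flanking genes 1 was thus lower and 1 higher, where 30.9% of all genes tested were lower and 32.6% higher.

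In the cluster on chromosome 10, Dcn and Lum lie 47 kb apart and on the same strand, with Dcn at 101.4 FPKM in KO and 68.4 in WT, and Lum near 0. Epyc (epiphycan, a cartilage proteoglycan), further along, was at 0.01 ± 0.0245 FPKM in KO and 0.38 ± 0.125 in WT, below the filter in both. In the cluster on chromosome 13, Ogn and Aspn lie 40.5 kb apart with Omd (osteomodulin) between them, which was at 0.325 ± 0.179 FPKM in KO and 0.138 ± 0.0445 in WT. Ecm2 (extracellular matrix protein 2) beside Aspn stayed under 0.05 FPKM on average in both genotypes. Members of a cluster thus differed widely in level in the same cells. Nol8, which flanks Ogn, was higher, at 3.9 ± 1 FPKM in KO and 2.21 ± 0.213 in WT (limma adjusted p = 0.00045), and Btg1, which flanks Dcn, was lower, at 18.8 ± 1.93 FPKM in KO and 21.7 ± 0.9 in WT (limma adjusted p = 0.019). Bgn is the only one of the 7 on chromosome X, and its neighbour Haus7, a spindle protein gene, was higher, at 19.9 ± 8.07 FPKM in KO and 8.31 ± 0.845 in WT (limma adjusted p = 0.00031).

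**Figure D4:**
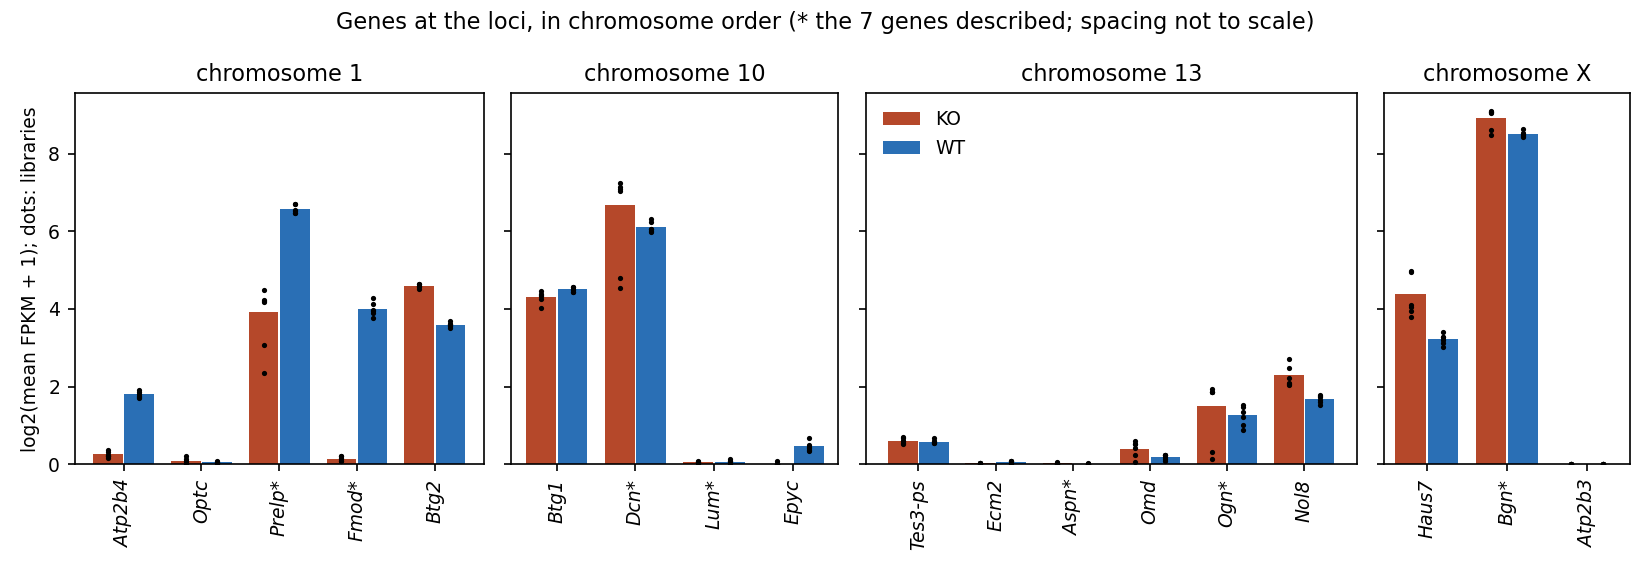
Mean level in log2(FPKM + 1) of the genes at the 4 loci in chromosome order, KO bars left of WT bars, with a dot for each of 6 libraries; asterisks mark the 7 genes, and spacing is not to scale. On chromosome 1 Atp2b4, Prelp and Fmod are lower in KO and Btg2 is higher, and Lum and Aspn are near 0 beside Dcn and Ogn.

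Of 11 further genes of the family 10 had a row, and Tsku was the one that could be tested. Tsku encodes tsukushi, a secreted inhibitor of BMP and Wnt signals. It was at 22.6 ± 2.4 FPKM in KO and 14.1 ± 0.754 in WT, 0.64 ± 0.068 (SE) higher on the log2 scale, with no overlap (limma adjusted p = 2.5e-06). The other 9 averaged less than 1 FPKM over the 12 libraries. The lists of genes below were chosen with earlier results of these data known, and their counts stand beside 32.6% higher and 30.9% lower among all genes tested, whose median difference was 0.0087 on the log2 scale.

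Enzymes that build and sulfate the sugar chains of these proteoglycans were more often higher than lower in KO. Of the 6 tested genes for the linker that joins a chain to its core, 5 were higher, none was lower, and the median difference was 0.37. B4galt7, the first galactosyltransferase of the linker, was at 7.22 ± 0.879 FPKM in KO and 4.11 ± 0.467 in WT (limma adjusted p = 7.2e-06). Pxylp1, the phosphatase that clears the linker xylose for chain growth, was at 9.22 ± 1.24 FPKM in KO and 5.55 ± 0.373 in WT, and Fam20b, the kinase that adds that phosphate, at 10.3 ± 0.319 FPKM in KO and 7.7 ± 0.48 in WT (limma adjusted p = 1.3e-05 and 1.6e-05). The counts of this list were the same without KO replicates 5 and 6.

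For the chondroitin and dermatan sulfate chains that biglycan and decorin carry, 7 of 11 tested enzymes were higher and none lower, with a median difference of 0.2. Ust, which sulfates uronic acid, was at 3.6 ± 1.17 FPKM in KO and at most 0.01 in WT libraries (limma adjusted p = 3.9e-08), and it passed the filter through KO libraries alone, which leaves 6 higher of 10. Chst11, a chondroitin sulfotransferase, was at 17 ± 6.11 FPKM in KO and 1.57 ± 0.128 in WT (limma adjusted p = 1.1e-07), with 8.85 and 9.64 in KO replicates 5 and 6 where the other 4 held 19.26 to 21.86. Chpf2, a chain polymerase subunit, was at 17 ± 2.41 FPKM in KO and 9.78 ± 0.635 in WT (limma adjusted p = 7.6e-06). Dse and Chst14, the epimerase and sulfotransferase that make dermatan sulfate, passed with small differences of 0.2 and 0.15 (limma adjusted p = 0.027 and 0.022). The counts were 7 higher and 1 lower without KO replicates 5 and 6.

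Keratan sulfate, which fibromodulin and lumican carry, gave a mixed picture. Of 8 tested enzymes 3 were higher, 1 was lower and 4 did not pass, with a median difference of 0.27. B4galt4, the galactosyltransferase of the sulfated chain, was the one that fell, at 4.36 ± 0.674 FPKM in KO and 9.04 ± 0.735 in WT (limma adjusted p = 8e-07). St3gal1 and St3gal2, sialyltransferases that can cap such chains, were at 20.8 ± 2.44 and 21.5 ± 3.48 FPKM in KO and at 13.4 ± 0.997 and 14.7 ± 0.524 in WT (limma adjusted p = 3e-05 and 0.00015). Without KO replicates 5 and 6, 5 of the 8 were higher and 1 was lower. Of 5 tested genes for tyrosine sulfation, a mark of fibromodulin and osteoglycin, 3 were higher and 2 did not pass, with or without KO replicates 5 and 6. Papss2, which makes the sulfate donor, was at 10.7 ± 0.722 FPKM in KO and 3.33 ± 0.273 in WT (limma adjusted p = 2.2e-10). The tyrosine sulfotransferases Tpst1 and Tpst2 were at 10.3 ± 0.688 and 12.9 ± 2.45 FPKM in KO and at 6.44 ± 0.44 and 7.01 ± 0.772 in WT (limma adjusted p = 1.1e-06 and 3.1e-05).

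Collagens to which these proteins bind moved in both directions. Of 11 tested, 5 were higher, 3 were lower and 3 did not pass, and without KO replicates 5 and 6 the counts were 6 higher and 3 lower. Of the 5 higher, Col3a1, Col6a3 and Col11a1 passed the filter through KO libraries alone, which leaves 2 higher and 3 lower of 8. Col12a1 was at 6.04 ± 1.1 FPKM in KO and 1.46 ± 0.0397 in WT, and Col5a2, a chain that limits fibril width, at 80.2 ± 10.5 FPKM in KO and 36.3 ± 0.952 in WT (limma adjusted p = 1.5e-08 and 2.3e-08). Col3a1 was at 140.79 to 154.74 FPKM in KO replicates 1 to 4, 19.57 and 25.31 in KO replicates 5 and 6, and 0.44 to 0.71 in WT libraries (limma adjusted p = 4.2e-07), so here, as for Dcn, these 2 libraries were the lowest of the KO set, yet they remained above WT. Col1a2, Col6a2 and Col14a1 were the 3 that fell. For Col14a1, a collagen of the fibril surface, KO libraries held 0.24 to 8.49 FPKM and WT libraries 21.13 to 30.57 (limma adjusted p = 0.00066).

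Receptors and growth factors that bind these proteoglycans were more often lower, with 10 of 17 tested lower, 4 higher and 3 not passing, and a median difference of -0.31. The counts were 11 lower and 6 higher without KO replicates 5 and 6. Ligands of the TGF-beta family, several of which these proteoglycans can bind, were among those that fell. Bmp4 was at 10.4 ± 1.14 FPKM in KO and 64.6 ± 3.57 in WT, Tgfb3 at 17.1 ± 1.5 FPKM in KO and 57.1 ± 1.38 in WT, and Tgfb2 at 4.42 ± 0.939 FPKM in KO and 20.1 ± 0.729 in WT (limma adjusted p = 2.7e-12, 2.6e-11 and 2.8e-09). The biglycan receptor gene Tlr2 was at 3.48 ± 1.17 FPKM in KO and 21 ± 1.34 in WT (limma adjusted p = 3.4e-08), and Tlr4 did not pass, at 8.53 ± 3 FPKM in KO and 8.48 ± 0.437 in WT (limma adjusted p = 0.79). Without KO replicates 5 and 6 Tlr4 passed as higher, by 0.25 on the log2 scale (limma adjusted p = 0.0017), with 9.07 to 11.57 FPKM in KO replicates 1 to 4 and 6.22 and 3.69 in the other 2. Of the decorin receptors, Egfr was higher, at 20.9 ± 2.12 FPKM in KO and 8.54 ± 0.412 in WT, and Met was lower, at 18.1 ± 2.51 FPKM in KO and 40 ± 1.01 in WT (limma adjusted p = 6.1e-09 and 7.1e-08). The genes Tlr2, Tlr4, Egfr and Met were picked after their values were seen.

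Of 10 tested proteases that process or cut these proteins, 9 were higher and 1 was lower, with a median difference of 1.64, and the counts were the same without KO replicates 5 and 6. Ctsk and Tll1 passed the filter through KO libraries alone, which leaves 7 higher and 1 lower. The list also held Pcolce, an enhancer of procollagen C-proteinase that is no protease itself, which did not pass (limma adjusted p = 0.35) and passed as higher without KO replicates 5 and 6 (limma adjusted p = 1.5e-05). Ctsk (cathepsin K) was at 25.5 ± 6.9 FPKM in KO and at most 0.05 in WT libraries. Tll1, a tolloid-like relative of the enzyme that trims probiglycan, was at 3.05 ± 0.525 FPKM in KO and at most 0.02 in WT libraries, and Adamts4, an aggrecanase, at 8.71 ± 1.73 FPKM in KO and 0.883 ± 0.0967 in WT (limma adjusted p = 2.6e-11, 9.8e-11 and 8.9e-10 for the 3 genes). Bmp1, which cleaves the propeptide of biglycan, was at 24.2 ± 6.87 FPKM in KO and 12.1 ± 0.412 in WT (limma adjusted p = 0.00048). Adamts5 was the one that fell, at 1.87 ± 0.613 FPKM in KO and 2.62 ± 0.0844 in WT (limma adjusted p = 0.022).

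**Figure D5:**
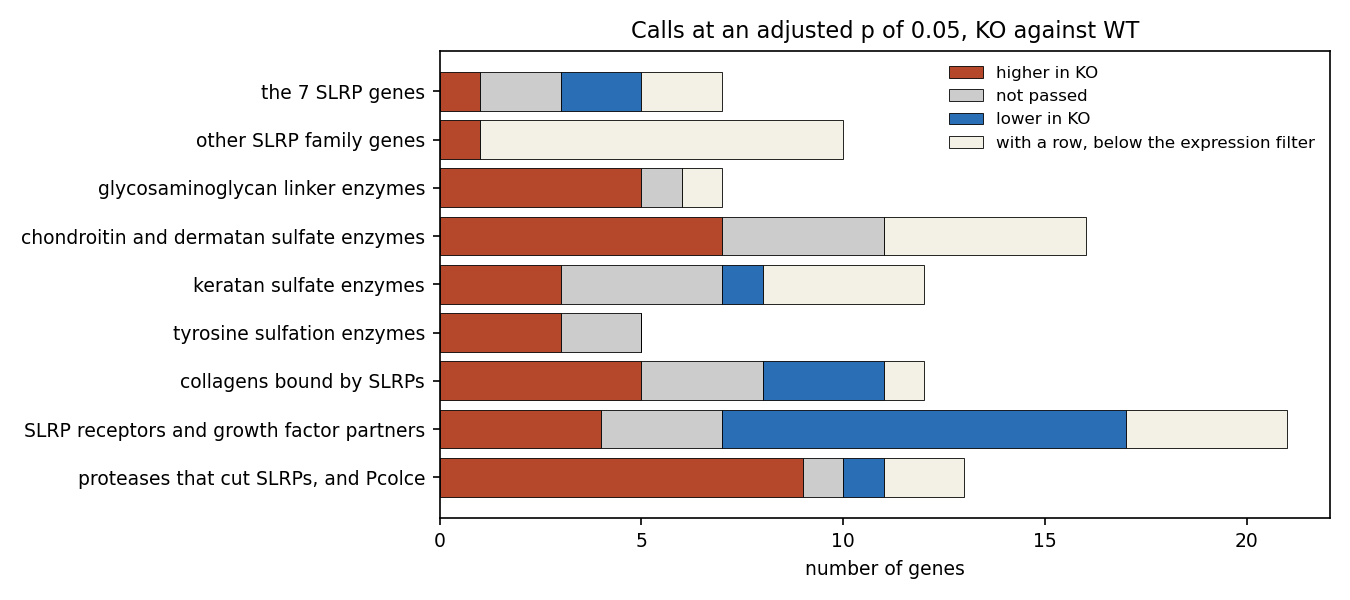
Number of genes in each list by outcome of the limma test at an adjusted p of 0.05, KO against WT; SLRP stands for small leucine-rich proteoglycan. The list of proteases includes Pcolce, and of its 11 genes tested 9 are higher in KO, and of the 17 receptors and growth factors tested 10 are lower.

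Markers of other cell types also differed among the libraries. Of 16 fibroblast markers, chosen without Dcn, Lum and Ogn, 15 had a row and 11 were tested, 7 of them higher and 2 lower in KO. Of the 7, Dpt, Col3a1, Serpinf1 and Cd34 passed the filter through KO libraries alone, which leaves 3 higher and 2 lower of 7. Their summed level was 1416 to 1497 FPKM in KO replicates 1 to 4, 712.8 and 926.2 in KO replicates 5 and 6, and 1059 to 1115 in WT libraries. The WT range of this sum, which is carried by Col1a1, Col1a2, Ly6a and Gsn, lay between the 2 sets of KO libraries. The filter put Dpt, Col3a1, Serpinf1 and Cd34 at 1 FPKM or more in every KO library and below that in every WT library. They could therefore not have the arrangement of Dcn. Of the other 7 single markers, 1 (Scara5) had it. In KO replicates 5 and 6, Pdgfra and Gsn of these 7 stayed above every WT library and 3 were below every WT library. Of the defining fibroblast markers, Pdgfra was at 10.4 ± 3.81 FPKM in KO and 1.08 ± 0.236 in WT, Dpt at 15.5 ± 5.33 FPKM in KO and 0.0433 ± 0.0677 in WT, and Pi16 at most 0.06 FPKM anywhere. The smooth muscle list, led by Acta2, went the other way among KO libraries: 10 of its 12 genes averaged under 1 FPKM, and its sum was 86.59 to 96.2 FPKM in KO replicates 1 to 4, 155 and 168.8 in KO replicates 5 and 6, and 124 to 152.8 in WT libraries. The proliferation marker Mki67 ranged from 14.18 to 18 FPKM in KO replicates 1 to 4, with 31.46 and 119.95 in KO replicates 5 and 6, and 20.13 to 27.48 in WT libraries. The part of these markers in the values of Dcn, Ogn and Bgn was not tested.

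The epithelial list moved with Fmod and Prelp. Its 11 genes with a row summed to 40.31 to 59.78 FPKM in KO libraries and 140.2 to 148.4 in WT libraries, nearly all of it Cdh1 and Krt19, while its other defining marker, Epcam, was at 0.0533 FPKM in KO and 0.065 in WT. The list for cartilage and tendon, tissues rich in fibromodulin, had 8 genes with a row that summed to 9.78 to 12.6 FPKM in KO libraries and 21.5 to 24.6 in WT libraries, mostly Sox9, at 6.23 FPKM in KO and 18.3 in WT. Without Sox9 the sums overlapped, at 3.86 to 5.95 FPKM in KO libraries and 4.46 to 5.74 in WT libraries. Of the 3 genes of this list tested, 2 were lower, Sox9 and the tendon marker Scx. Scx was at 1.37 FPKM in KO and 3.505 in WT, with no overlap (limma adjusted p = 1.7e-07). The tendon marker Mkx went the other way, at 2.45 FPKM in KO and 0.203 in WT (limma adjusted p = 1.1e-08), and it passed the filter through KO libraries alone. The defining markers Acan and Tnmd were near 0, at most 0.01 FPKM in KO libraries and at most 0.11 in WT libraries. The mesothelial list summed to 171.2 to 181.2 FPKM in KO libraries and 86.9 to 98.2 in WT libraries. Its higher sum in KO rests on Pdpn (podoplanin), at 99.08 to 120.97 FPKM in KO libraries and 1.71 to 2.42 in WT libraries. Without Pdpn the direction of the sum turned, at 50.2 to 76.2 FPKM in KO libraries and 84.9 to 95.8 in WT libraries. That sum is mostly Krt19, also in the epithelial list, at 50.1 FPKM in KO and 78.5 in WT. Of the 7 mesothelial markers tested, 4 were higher and 2 were lower. Upk3b and Wt1 passed the filter through KO libraries alone, which leaves 2 higher and 2 lower of 5. The defining mesothelial markers were at 3.61 ± 1.83 FPKM in KO and 5.96 ± 0.183 in WT for Msln, and 2.1 ± 0.346 in KO and 0.448 ± 0.0828 in WT for Upk3b. The endothelial list summed to 20.4 to 28.1 FPKM in KO libraries and 47 to 53.6 in WT libraries, nearly all of it Eng, with the defining markers Pecam1 and Cdh5 at most 0.13 FPKM in KO libraries and 0.22 in WT libraries. The macrophage list summed to 41.4 to 57.2 FPKM in KO libraries and 39.1 to 47.1 in WT libraries, mostly Cd14, and its defining markers Ptprc and Adgre1 were at most 0.03 FPKM in KO libraries and 0.04 in WT libraries. Of its 3 genes tested, 2 were higher and Cd14 did not pass. Cd68 was at 8.19 FPKM in KO and 1.62 in WT (limma adjusted p = 1.1e-06). Csf1r was at 3.05 FPKM in KO and 0.707 in WT (limma adjusted p = 2.1e-09), and passed the filter through KO libraries alone. The part of these markers in the values of Fmod and Prelp was not tested.

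For each tested gene the 3 genes with the most similar pattern were sought, by the root mean square difference over the 12 libraries between log2 values centred on each gene's mean. Predicted genes, clones and pseudogenes were left out of this search. Dcn was nearest to Steap4, a metalloreductase (0.087), Selenop, the selenium carrier (0.131), and Clu, the chaperone clusterin (0.143), where Dcn itself departed from its own mean by 0.839. Steap4 was at 53.38 to 58.84 FPKM in KO replicates 1 to 4, 8.31 and 7.05 in KO replicates 5 and 6, and 23.54 to 29.24 in WT libraries, so the same 3 levels recurred in it. Ogn was nearest to Etfbkmt, Lrg1 and Islr (0.162 to 0.17), the last itself a leucine-rich repeat protein. Bgn was nearest to Adgrg6, Fam102a and Aldh3b1 (0.053 to 0.059).

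Prelp was nearest to Aldh3a1, an aldehyde dehydrogenase (0.142), Dkk3, a secreted relative of Wnt inhibitors (0.178), and Rerg (0.223), against a departure of 1.515 from its own mean. Aldh3a1 was at 268.41 to 295.87 FPKM in KO replicates 1 to 4, 81.65 and 93.05 in KO replicates 5 and 6, and 1306.3 to 1436.66 in WT libraries, a step down in the same 2 libraries as Prelp. Fmod was nearest to Mlph (melanophilin, 0.163), Adamtsl3 (0.184) and Moxd1 (0.258), against 1.931 from its own mean. These 3 were at most 0.99 FPKM in KO libraries and at least 18.45 in WT libraries.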

How the data were processed

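Polyadenylated RNA was sequenced in paired ends from 6 KO and 6 WT libraries, per the labels' protocols. Per the submitters' processing notes, the tools include HISAT2 2.0.4 (an aligner) and StringTie 1.3.4d, and the build is mm9. DESeq2 and edgeR are listed too, without a role. Use of strand is not stated there. The authors deposited FPKM to 2 decimals, and, for their own comparison, a ratio (fold) of WT over KO on linear and log2 scales. Each gene also has a deposited p-value and q-value, and the file headers do not say which tool gave them.

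Genes that reached 1 FPKM in 6 or more of the 12 libraries were tested on log2(FPKM + 1) in limma 3.58.1 (R 4.3.3) using a variance trend and no covariate, after a check on simulated data. Lum and Aspn, below the filter, got an exact permutation test. FPKM is relative within a library, so genes that gain lower the rest. No count test was run, since no counts were used. Gene IDs were matched to GENCODE M21 (29384 of 29462), and positions are those of GRCm38. RefSeq promoter windows of 5 of the 7 genes were used.

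The genes and lists were chosen with earlier results of these data known. Named genes are the 7, family genes at 1 FPKM or more, up to 3 called genes per list with the smallest p, defining markers, flanking genes and the 3 nearest patterns. Genes named outside this rule were picked with their values known. They include Dse, Chst14, Col1a2, Col6a2, Col14a1, Bmp1, Adamts5, Krt19, Cd14, Cd68 and Csf1r. Pdpn, Wt1, Gsn, Sox9, Scx, Mkx, Pcolce, Scara5, Mki67 and Xist are others. Alternatives covered pseudocount, filter, scaling, variance model, test, replicate block, the authors' table and libraries left out.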

Additional observations from a re-analysis of the deposited data

How the results depend on the processing

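Over 24 alternative settings and the authors' deposited table, the directions and calls of Fmod, Prelp and Bgn held in each, and Lum and Aspn kept their sign and did not pass in any. The authors' table does not mark Bgn as significant, although it lists a q-value under 0.05. The differences ran from -7.15, the log2 ratio of the authors' deposited table, to -3.8 for Fmod, from -2.97 to -2.3 for Prelp and from 0.35 to 0.58 for Bgn, for which the weakest adjusted p was 0.0436 with an exact rank-sum test. The number of the 7 genes called, 3, was 5 with a weight per library and 5 without KO replicates 5 and 6. These settings gave close values, so they are not separate checks. The added calls were Dcn (1.01 with weights, adjusted p = 3.4e-06; 1.02 without the 2 libraries, adjusted p = 2.6e-08) and Ogn (0.62, adjusted p = 0.00038; 0.64, adjusted p = 0.00021). With all libraries but one, Dcn ran from 0.01 to 0.55 and Ogn from -0.041 to 0.32, with adjusted p from 0.21 to 0.99 for Dcn and from 0.31 to 0.98 for Ogn. The sign of Ogn turned with pseudocounts of 0.1 (-0.21) and 0.01 (-0.37), with TPM rescaling (-0.056), and without KO replicate 1, 2, 3 or 4 (-0.041 to -0.025). The cause was not tested. Of 11831 genes tested 7515 were called, 4775 of the 7244 that reached at least 5 FPKM in at least 6 libraries, where fewer genes are tested, and 7121 to 8105 with one library left out. Summing rows of 1 symbol was not run, since each of the 7 genes had 1 row.

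KO and WT share replicate numbers, but same-numbered libraries did not deviate together (correlations of -0.273 to -0.058, and in 0 of 6 pairs was the own number the best match). The split of KO replicates 5 and 6 from the other KO libraries may hide a weaker shared deviation, so pairing by number is not excluded. With the replicate block 6959 genes and 3 of the 7 were called, with Bgn at an adjusted p of 0.021 and Prelp at 0.00013. No sum of counts is known, so depth sets no interval here, and the values of Lum and Aspn, at most 0.09 FPKM, and of Fmod in KO, at most 0.16 FPKM, may rest on few reads.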
